A study of Mus musculus with 6 samples.

Results

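Glycolysis and hypoxia response genes were followed in blood endothelial cells sorted from mouse intestine. The list held 40 gene symbols. A gene entered when the array annotation gave it at least 1 probe set of its own, and the brightest on average stood for a gene with several. This left 35 of the 40 genes, out of 22180 genes with such a probe set. Aldoa, Bnip3l and Ankrd37 were named only on probe sets shared with another gene, and no annotation entry matched Gpi1 or Eno1. The knockout group consisted of Apcfl//fl; Villin-CreERT2 (KO) mice and the control group of mice labelled WT, Apcfl//fl. There were 3 arrays of each, 1 biological replicate per array. Mice of both groups were adults on a mixed C57BL/6 x 129 background, carried floxed Apc and received tamoxifen for 5 days before harvest of the intestine on day 6. Villin-CreERT2 is a tamoxifen-activated recombinase under a promoter of intestinal epithelium, so that Apc, a brake on Wnt signalling, is deleted there and not in the endothelial cells. The cells were released with collagenase IV and sorted as CD45neg EpCAMneg gp38neg CD31+, and their RNA was amplified and measured on whole-transcript Affymetrix arrays (Mouse Gene 2.0 ST). The labels do not say whether a replicate was 1 mouse or several, and the p-values measure the spread between these samples.

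Cells sense oxygen through prolyl hydroxylases, which mark the alpha subunits of hypoxia-inducible factor (HIF) for destruction when oxygen is present. When oxygen falls, HIF accumulates and binds short hypoxia response elements near its target genes, many of which encode glucose transporters and glycolytic enzymes. Endothelial cells draw much of their energy from glycolysis even in oxygenated blood, and sprouting vessels depend on it. HIF alpha subunits are controlled largely at the level of protein, which an expression array does not measure.

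The sorted cells carried endothelial transcripts. All values below are RMA values on the log2 scale, and differences are knockout minus control with the standard error of the limma fit. Pecam1, which encodes the sort marker CD31, was between 11.41 and 11.44 on the knockout arrays and between 11.35 and 11.49 on the control arrays. Of the genes for markers sorted against, Epcam was at 3.74, 3.75 and 3.81 in the knockout and at 3.88, 7.20 and 6.24 in the control, so that controls 2 and 3 were above background. Ptprc (CD45) was at 3.82 to 4.43 in the knockout and 4.16 to 4.78 in the control, and Pdpn (gp38) at 5.07 to 5.18 in the knockout and 5.17 to 5.79 in the control. Ptprc was above background on 2 knockout and 3 control arrays, and Pdpn on every array. The background was a log2 value of 4.12, taken from olfactory and other chemosensory receptor genes, and all 12 pan-endothelial markers were above it on every array. Their list mean was 0.054 to 0.13 on knockout arrays and -0.018 to 0.027 on control arrays, without overlap, and 1 of the 12 rose, Eng, by 0.26 (adjusted p = 0.0211), with 5 higher and 0 lower at an unadjusted p under 0.05 by limma. Of 6 lymphatic endothelial markers 2 rose, Lyve1 by 1.13 (adjusted p = 0.0406) and Flt4 by 0.65 (adjusted p = 0.0104). The other 4 did not pass by limma (adjusted p from 0.461 to 0.940). Prox1, Mmrn1, Reln and Pdpn differed by 0.056, 0.32, 0.18 and -0.30. Markers of other cell types differed between the groups. Of 18 markers of enterocytes and epithelium, 10 were lower in the knockout by limma (17 before adjustment) and 0 higher (also 0 at an unadjusted p under 0.05), and their summed level was 10.11 to 10.39 on knockout arrays against 11.94 to 13.68 on control arrays. Epcam, Sis and Cdh17 were above background on no knockout array. Of 12 mural and smooth muscle markers 6 were lower and 1 higher, with summed levels of 12.48 to 12.77 in the knockout and 13.07 to 13.29 in the control. The 8 tested markers of T and NK cells had 0 calls by limma, with 5 lower before adjustment at p under 0.05. Control 1 held the least epithelial RNA of the controls, with the enterocyte list at -1.08 relative to the control mean, against 0.70 in control 2 and 0.38 in control 3. In sorted cells, fewer cells of a type and less RNA per cell cannot be told apart. Apc itself was at 6.42, 6.24 and 6.38 in the knockout and 6.29, 6.52 and 6.70 in the control (adjusted p = 0.65), which does not check the labels because it was deleted in another tissue.

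**Figure D1:**
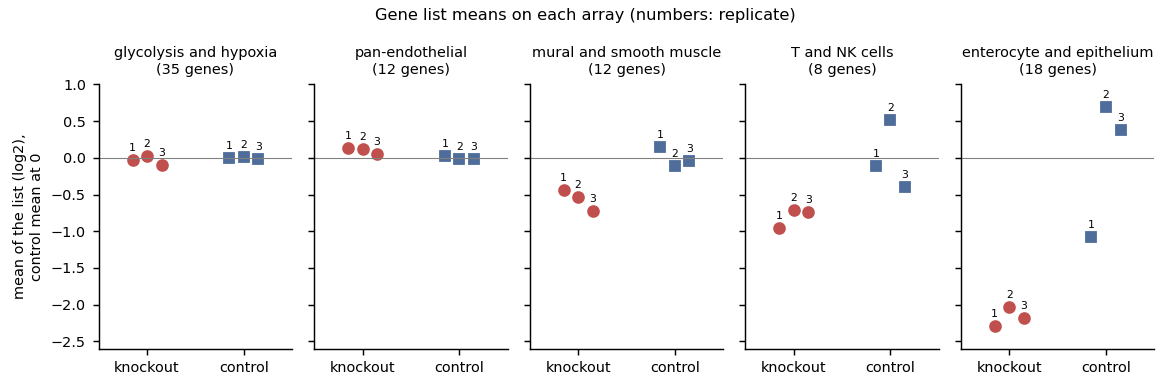
Mean of each gene list on each array, as the log2 difference from the mean of the 3 control arrays, with knockout arrays as red circles and control arrays as blue squares. The glycolysis and hypoxia genes lie between -0.098 and 0.025 on the knockout arrays, the pan-endothelial markers between 0.054 and 0.13, above the control arrays, and the mural and enterocyte markers below 0.

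As a whole, the glycolysis and hypoxia genes did not move in 1 direction. All 35 were above background on average over the 6 arrays and were tested together with the other genes. Of these, 1 rose (2.86%), 0 fell by limma and 34 did not pass an adjusted p of 0.05, where 2.57% of all 15312 tested genes passed, 1.10% of them higher and 1.47% lower. The share of members that passed was close to that background. The median change was -0.036 over the members and -0.017 over all tested genes, with 16 of 35 members above 0 (45.7%) and 19 below, where 46.7% of all tested genes were above 0. The mean of the 35 members lay at -0.031, 0.025 and -0.098 on knockout arrays 1, 2 and 3, around the control mean, and between -0.0099 and 0.0091 on the control arrays.

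Smaller differences were spread over both directions. At an unadjusted p of 0.05 there were 12 members (34.3%), 6 higher and 6 lower in the knockout, against 16.4% of all tested genes, 7.20% higher and 9.22% lower. The groups did not overlap for 12 members (34.3%), 7 with every knockout array above every control array and 5 with every one below, against 22.0% of all tested genes, 9.78% above and 12.3% below. Changes over 0.5 in size were seen in 1 of 35 members (2.86%) and in 7.33% of all tested genes. The median standard error was 0.13 for the members and 0.15 for all tested genes. Knockout 3 was the lowest of the knockout arrays for 15 members and knockout 1 for 14, while knockout 2 was the highest for 18. Among the control arrays, control 3 was the lowest for 16 members.

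**Figure D2:**
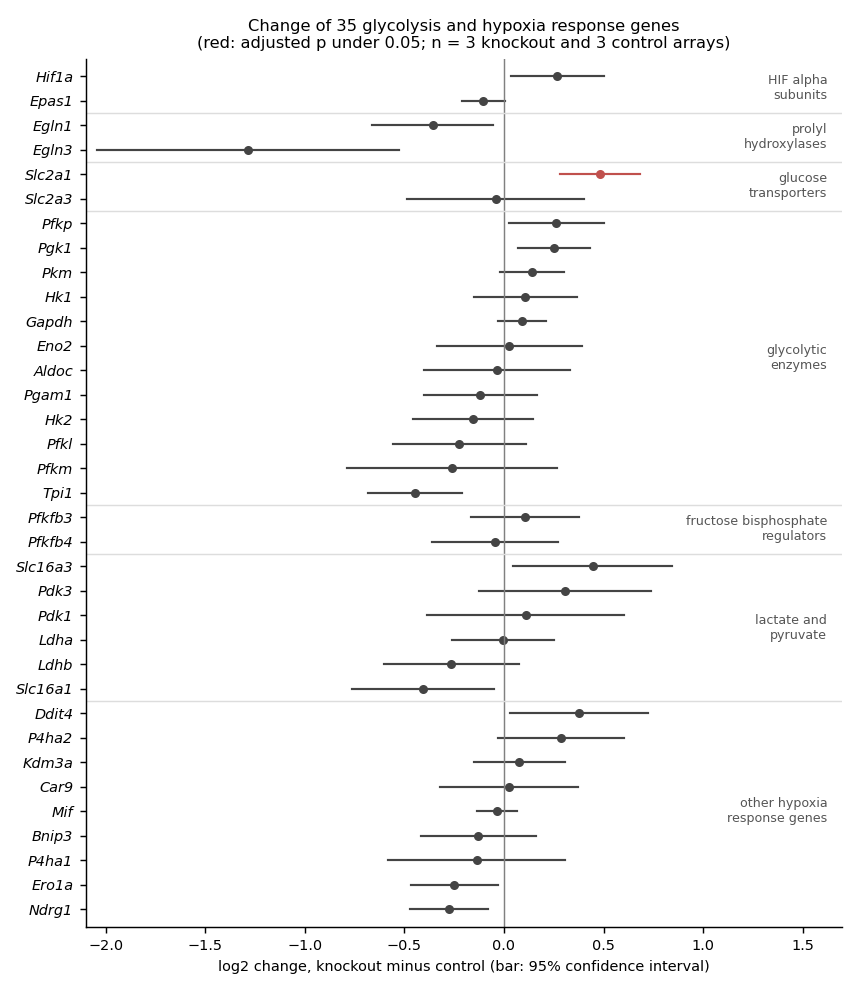
Log2 change, knockout minus control, of the 35 genes by role, with 95% confidence intervals of the limma fit (n = 3 arrays per group). The interval of Slc2a1, the gene in red with an adjusted p under 0.05, runs from 0.28 to 0.68, and Egln3 has the lowest estimate at -1.29.

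**Figure D3:**
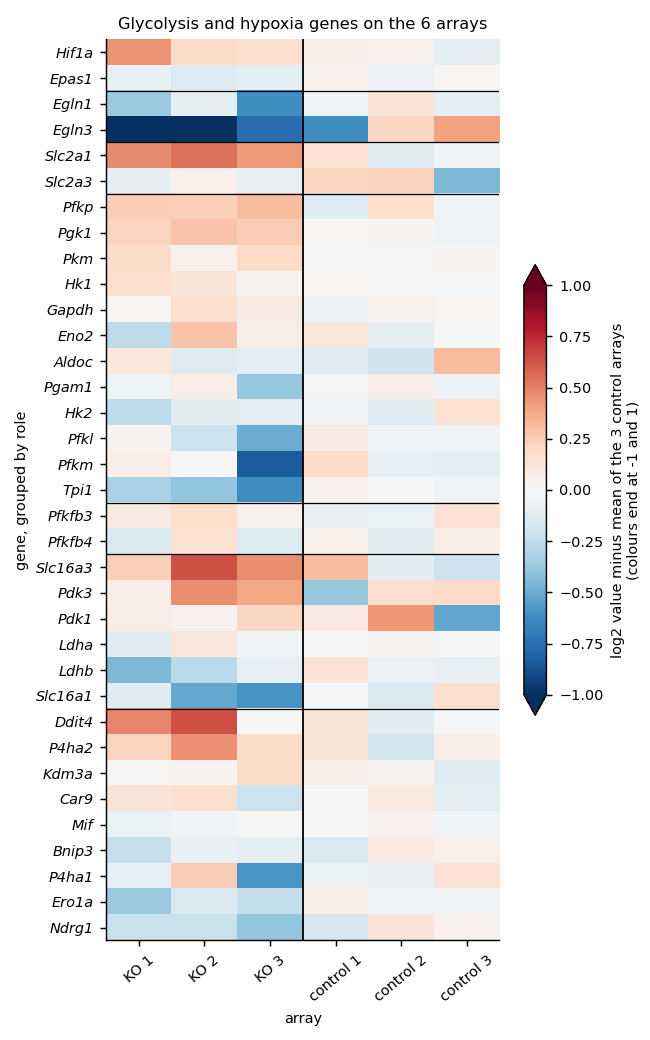
Log2 value of each gene on each of the 6 arrays minus the mean of the 3 control arrays, with genes grouped by role and knockout arrays on the left. Slc2a1, Pfkp and Pgk1 are above the control mean on all knockout arrays, Egln3, Tpi1 and Ndrg1 are below it, and most other genes stay near it.

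The gene that rose was Slc2a1, which encodes GLUT1, the main glucose carrier of endothelium. Slc2a1 was at 9.53, 9.60 and 9.47 on the knockout arrays and at 9.20, 8.95 and 9.01 on the control arrays. Every knockout array lay above every control array, with control 1 the nearest. The change was 0.48 ± 0.088, or 1.40-fold (limma, adjusted p = 0.0272), at percentile 97.1 of the signed changes of all tested genes. A dimmer probe set of Slc2a1 was at 5.78, 6.16 and 5.83 in the knockout and at 5.55, 5.61 and 5.40 in the control, again without overlap, a difference of 0.40. The call rested on all arrays but control 1, since the adjusted p lay between 0.0789 and 0.102 without knockout 1, 2 or 3 or without control 2 or 3, and was 0.0156 without control 1. The call was also lost with the mean of both probe sets (adjusted p = 0.0815) and without the variance trend (adjusted p = 0.0927). The pan-endothelial list, Lyve1 and Flt4 were higher in the knockout too, and their part in the result was not tested.

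The promoter of Slc2a1 is shown because this was the member that passed. The letters are the 250 bases before the transcription start in RefSeq (GRCm38.p6), chr4:119108495-119108744 on the + strand, with the cores of hypoxia response elements (ACGTG or GCGTG, on either strand) in capitals.
Slc2a1: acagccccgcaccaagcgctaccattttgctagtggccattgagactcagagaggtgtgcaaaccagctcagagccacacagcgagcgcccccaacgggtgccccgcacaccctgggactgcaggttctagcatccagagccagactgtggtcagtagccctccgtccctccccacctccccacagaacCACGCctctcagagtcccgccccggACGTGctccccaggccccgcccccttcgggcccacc
These bases hold 1 ACGTG core on the printed strand and, upstream of it, 1 GCGTG core on the opposite strand (printed as its complement).

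Slc2a3, which encodes GLUT3, a carrier with high affinity for glucose, was at 5.14, 5.29 and 5.15 in the knockout and at 5.45, 5.47 and 4.79 in the control. Control 3 was the lowest array and controls 1 and 2 the highest, so the groups overlapped. The difference was -0.041 ± 0.20 (adjusted p = 0.946), with a 95% interval from -0.49 to 0.40.

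The HIF subunits differed little between the groups. Hif1a, which encodes the alpha subunit found in most cells, was at 9.01, 8.76 and 8.74 on the knockout arrays and at 8.63, 8.61 and 8.47 on the control arrays. The knockout arrays lay above the controls without overlap, and the difference of 0.27 ± 0.10 did not pass (adjusted p = 0.232). A second, dimmer probe set of Hif1a overlapped between the groups and differed by -0.092. Epas1, which encodes HIF-2 alpha, the subunit prominent in endothelium, was at 11.55, 11.50 and 11.53 in the knockout and at 11.66, 11.57 and 11.65 in the control. These groups did not overlap either, with the knockout lower by a small amount (-0.10 ± 0.048, adjusted p = 0.332).

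The oxygen sensors Egln1 and Egln3 were both lower on average in the knockout, and neither passed. Egln3, which encodes the prolyl hydroxylase PHD3 and is itself a HIF target, was at 4.62, 3.83 and 5.01 on the knockout arrays and at 5.16, 5.98 and 6.18 on the control arrays. Knockout 2 was below background and control 1 was close to knockout 3, but no knockout array reached a control. The difference of -1.29 ± 0.33 was the largest in size of the 35 and had an adjusted p of 0.0869. Leaving out control 1 gave -1.59 (adjusted p = 0.0343), the 1 alternative of 15 under which Egln3 passed. With 1 array left out, its difference lay between -1.59 and -0.96 and its adjusted p by limma between 0.0343 and 0.252. Among the controls, Egln3 and the enterocyte list were both lowest in control 1, and the part of epithelial RNA in the difference was not tested. Egln1, which encodes PHD2, the main oxygen sensor of most cells, was at 8.48, 8.77 and 8.25 in the knockout and at 8.83, 8.99 and 8.76 in the control. Knockout 2 just exceeded control 3, and the difference was -0.36 ± 0.14 (adjusted p = 0.223).

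The promoter of Egln3 is shown because this gene had the largest difference among the members. Its 250 bases lie at chr12:54203875-54204124 on the - strand (GRCm38.p6), with 1 ACGTG core in capitals.
Egln3: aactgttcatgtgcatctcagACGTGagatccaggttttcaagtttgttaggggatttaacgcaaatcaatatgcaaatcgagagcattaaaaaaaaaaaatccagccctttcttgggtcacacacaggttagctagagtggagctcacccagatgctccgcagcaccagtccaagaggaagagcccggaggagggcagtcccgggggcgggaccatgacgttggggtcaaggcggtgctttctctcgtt

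**Figure D4:**
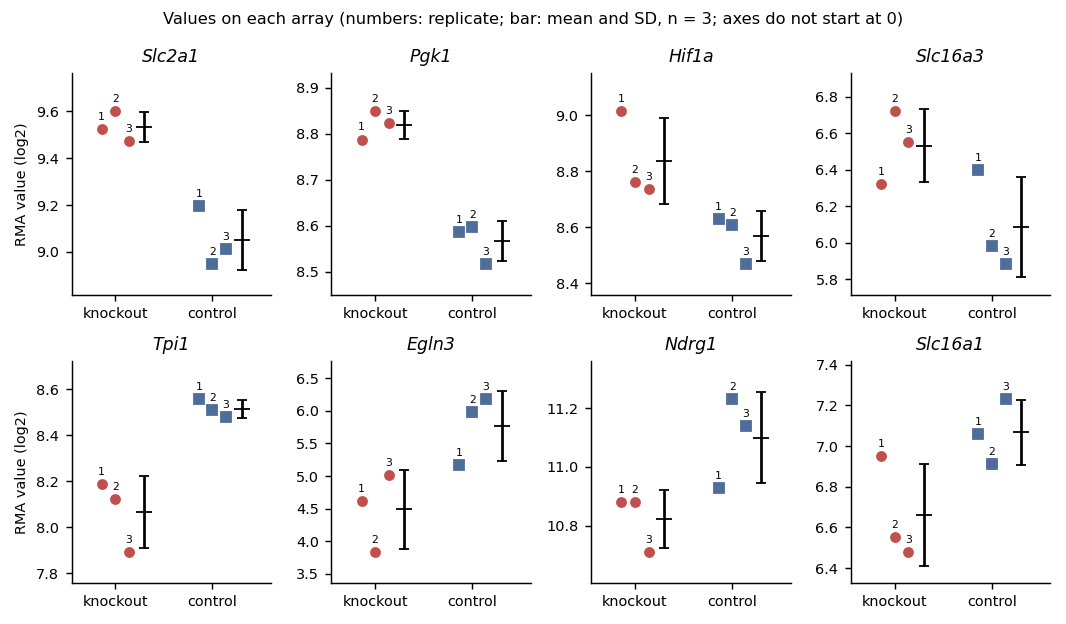
RMA values on the log2 scale of 8 genes on each array, knockout as red circles and control as blue squares, with the replicate number beside each point and the mean and SD (n = 3) at the side. The upper row holds genes with a higher mean in the knockout (Slc2a1, Pgk1, Hif1a, Slc16a3) and the lower row genes with a lower one (Tpi1, Egln3, Ndrg1, Slc16a1), of which Slc2a1 alone passed an adjusted p of 0.05.

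Of the 12 measured glycolytic enzymes, 6 had a positive and 6 a negative change (7 and 5 with the mean of both Pgam1 probe sets, 0.16 in place of -0.12), and 0 passed by limma (before adjustment 3 had p under 0.05, 2 higher and 1 lower). Glycolysis starts with hexokinase, which traps glucose in the cell. Hk1, the widely expressed hexokinase, was at 6.87, 6.83 and 6.73 in the knockout and at 6.72, 6.70 and 6.69 in the control. The groups just failed to touch, and the difference was 0.11 ± 0.11 (adjusted p = 0.703). Hk2, the inducible hexokinase, was at 4.46, 4.61 and 4.61 in the knockout and at 4.67, 4.60 and 4.87 in the control. These arrays overlapped and lay not far above background, with a difference of -0.16 ± 0.13 (adjusted p = 0.626).

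Phosphofructokinase, which commits sugar to glycolysis, is built from 3 types of subunit. The platelet-type subunit gene Pfkp was at 8.081, 8.077 and 8.142 in the knockout and at 7.716, 7.995 and 7.797 in the control. The knockout arrays were higher without overlap, by 0.26 ± 0.11 (adjusted p = 0.252). The liver-type gene Pfkl and the muscle-type gene Pfkm overlapped between the groups and had differences of -0.22 and -0.26 (adjusted p = 0.51 and 0.644). Pfkm was at 3.83 in knockout 3, below background, and at 4.73 and 4.66 in knockouts 1 and 2, against 4.57 to 4.85 in the controls. Its difference was 0.028 without knockout 3. The members included 2 genes for enzymes that make fructose 2,6-bisphosphate, the activator of phosphofructokinase. Pfkfb3, which drives glycolysis in sprouting endothelium, was at 6.98, 7.07 and 6.93 in the knockout and at 6.81, 6.82 and 7.03 in the control. Control 3 lay inside the knockout range, and the difference was 0.11 ± 0.12 (adjusted p = 0.726), with a 95% interval from -0.17 to 0.38. The other of these 2 genes, Pfkfb4, differed by -0.044 (adjusted p = 0.916).

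In the middle of the pathway the estimated changes pointed in opposite directions. Tpi1, which encodes the enzyme that interconverts the triose phosphates, was at 8.19, 8.12 and 7.89 on the knockout arrays and at 8.56, 8.51 and 8.48 on the control arrays. The knockout was lower without overlap, and the 3 controls lay close together. The difference of -0.45 ± 0.10 (adjusted p = 0.0604) had the second smallest p of the members. Of 16 alternatives run, it passed under 2, cyclic loess normalization (adjusted p = 0.0463) and a stricter filter on dim genes (adjusted p = 0.0397). With 1 array left out, its adjusted p by limma lay between 0.0845 and 0.171. Mural and enterocyte markers were lower in the knockout as well, and their part in the difference was not tested.

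Pgk1, which encodes the first ATP-yielding enzyme of glycolysis and is a much used example of a HIF target, was at 8.79, 8.85 and 8.82 in the knockout and at 8.59, 8.60 and 8.52 in the control. The arrays of each group lay close together and the groups did not overlap. The difference of 0.25 ± 0.080 did not pass (adjusted p = 0.151). It lay between 0.23 and 0.28 under all alternatives run, but passed under none of them. Its promoter, at chrX:106186850-106187099 on the + strand (GRCm38.p6), is shown for comparison with that of Slc2a1 and holds 2 ACGTG cores, one on each strand.
Pgk1: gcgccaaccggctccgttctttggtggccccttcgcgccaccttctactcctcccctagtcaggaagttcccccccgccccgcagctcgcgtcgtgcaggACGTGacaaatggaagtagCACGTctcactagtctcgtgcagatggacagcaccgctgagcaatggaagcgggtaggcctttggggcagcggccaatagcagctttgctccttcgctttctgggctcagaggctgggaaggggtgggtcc

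The remaining enzymes showed small differences. Pkm, which encodes pyruvate kinase, was at 9.94, 9.80 and 9.94 in the knockout and at 9.74, 9.73 and 9.78 in the control. The groups did not overlap, and the difference was 0.14 ± 0.070 (adjusted p = 0.366). Gapdh, which oxidises glyceraldehyde 3-phosphate, differed by 0.088 (adjusted p = 0.467), and by 0.12 on a second bright probe set, on which the groups did not overlap. Another Gapdh probe set was above background on no array. The 2 probe sets of Pgam1, which encodes phosphoglycerate mutase, pointed in opposite directions, the brighter at -0.12 (adjusted p = 0.703) and the dimmer at 0.44, so no direction was assigned to Pgam1. Aldoc and Eno2, better known from neurons, lay near background, at means of 4.25 and 4.29 in the knockout and 4.28 and 4.27 in the control.

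Genes for the fate of pyruvate and lactate also split 3 and 3, and 0 of 6 passed by limma (before adjustment 2 had p under 0.05, 1 higher and 1 lower). Ldha, whose product turns pyruvate into lactate, was at 6.93, 7.15 and 7.01 in the knockout and at 7.03, 7.07 and 7.02 in the control. All 3 controls lay inside the knockout range. The difference was -0.0050 ± 0.11 (adjusted p = 0.99), and its 95% interval ran from -0.26 to 0.25. Ldhb, whose product favours the reverse reaction, was at 5.62, 5.80 and 5.99 in the knockout and at 6.21, 6.01 and 5.98 in the control. Knockout 3 reached the level of control 3, and the difference was -0.27 ± 0.15 (adjusted p = 0.433).

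The promoter of Ldha is shown too, and held more cores than those printed above. It was taken from the Ldha window with the most cores. Another Ldha window of 300 bases, at chr7:46846832-46847131, held 0 ACGTG and 2 GCGTG cores. The printed bases are chr7:46845554-46845803 on the + strand (GRCm38.p6), and the palindrome CACGTG, which reads as a core on both strands, occurs in 2 places.
Ldha: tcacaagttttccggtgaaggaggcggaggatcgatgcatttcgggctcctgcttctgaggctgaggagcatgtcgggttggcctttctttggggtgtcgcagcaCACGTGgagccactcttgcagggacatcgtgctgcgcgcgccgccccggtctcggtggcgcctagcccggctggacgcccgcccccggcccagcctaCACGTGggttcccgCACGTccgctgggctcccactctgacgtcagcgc

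The estimates for the lactate carriers had opposite signs, and neither passed. Slc16a3, which encodes the lactate exporter MCT4, was at 6.32, 6.72 and 6.55 on the knockout arrays and at 6.40, 5.98 and 5.88 on the control arrays. Control 1 lay inside the knockout range, while controls 2 and 3 lay below it. The difference was 0.45 ± 0.18 (adjusted p = 0.246). Slc16a1, which encodes MCT1, a carrier for uptake and release of lactate, was at 6.95, 6.56 and 6.48 in the knockout and at 7.06, 6.91 and 7.23 in the control. Knockout 1 overlapped the controls, and the difference was -0.41 ± 0.16 (adjusted p = 0.239). Pdk1, which encodes a kinase that inhibits pyruvate dehydrogenase, was at 6.67, 6.64 and 6.80 in the knockout and at 6.68, 7.03 and 6.08 in the control. The controls spanned the whole knockout range (0.11 ± 0.22, adjusted p = 0.858). The related kinase gene Pdk3 differed by 0.31 ± 0.19 (adjusted p = 0.486).

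Of the 9 other hypoxia response genes, 0 passed by limma, 4 had a positive and 5 a negative change, and 3 had an unadjusted p under 0.05 (1 higher and 2 lower). Ddit4, which encodes the mTORC1 inhibitor REDD1, was at 9.68, 9.84 and 9.19 in the knockout and at 9.31, 9.08 and 9.18 in the control. Knockout 3 lay within the control range and the other 2 knockout arrays above it (0.38 ± 0.15, adjusted p = 0.262). Ndrg1, a stress-responsive gene induced by hypoxia, was at 10.88, 10.88 and 10.71 in the knockout and at 10.93, 11.23 and 11.14 in the control. Control 1 was only just above knockouts 1 and 2. The difference was -0.28 ± 0.087 (adjusted p = 0.148). Leaving out control 1 gave -0.36 (adjusted p = 0.0471), the 1 alternative of 16 under which Ndrg1 passed. With 1 array left out, its difference lay between -0.36 and -0.21 and its adjusted p by limma between 0.0471 and 0.37. The second probe set of Ndrg1 also differed by -0.28, without overlap.

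Ero1a, whose product forms disulfide bonds in the endoplasmic reticulum, was at 8.17, 8.40 and 8.30 in the knockout and at 8.61, 8.50 and 8.50 in the control. The groups did not overlap (-0.25 ± 0.096, adjusted p = 0.233), whereas a second Ero1a probe set overlapped and differed by -0.12. P4ha2, a collagen prolyl hydroxylase gene, was at 6.81, 7.04 and 6.77 in the knockout and at 6.71, 6.40 and 6.65 in the control. The knockout arrays were higher without overlap (0.29 ± 0.14, adjusted p = 0.357), while its relative P4ha1 differed by -0.14 (adjusted p = 0.787). Car9, which encodes carbonic anhydrase IX and is among the most used markers of hypoxia, was at 5.35, 5.38 and 5.01 in the knockout and at 5.22, 5.32 and 5.12 in the control. Its groups overlapped and the difference was 0.025 ± 0.15 (adjusted p = 0.96), with a 95% interval from -0.32 to 0.37. The mitophagy receptor gene Bnip3, the cytokine gene Mif and the histone demethylase gene Kdm3a overlapped between the groups, with differences of -0.13, -0.037 and 0.078 and adjusted p-values from 0.677 to 0.763.

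Hypoxia response element cores were common in the promoters of these genes. RefSeq windows of 300 bases, 250 before and 50 after the start, were found for 32 of the 35 genes. ACGTG on either strand was present in 24 of the 32 genes (75.0%), against 27.3% of tested genes with a window and 21.8% of all genes with one. GCGTG was present in 22 (68.8%), against 50.5% of tested genes and 35.2% of all genes. Neither core was found in the windows of Tpi1 and Eno2. The list holds genes known as HIF targets, and a match in a window is not evidence that HIF binds there.

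Other genes of the same pathways held 6 further calls. These lists had 133 genes, of which 121 had a probe set of their own and 116 were above background. Of the 116, 2 rose and 4 fell, against 1.10% higher and 1.47% lower among all tested genes. The largest rise was in Stc1, which encodes stanniocalcin 1, a secreted glycoprotein induced by hypoxia. Stc1 was at 9.01, 8.90 and 8.81 on the knockout arrays and at 7.55, 7.82 and 7.41 on the control arrays. The knockout arrays stood well clear of every control array. The change was 1.32 ± 0.12, or 2.49-fold (adjusted p = 0.00216), and it passed under all 16 alternatives run (adjusted p from 0.00107 to 0.0253). Stc1 was the only call among 35 tested genes of its list. Vegfa, Adm and Angptl4, other targets of HIF in many cells, differed by -0.30, -0.0072 and 0.020 (adjusted p from 0.583 to 0.993), values named after they were seen. Edn1, which encodes the vasoconstrictor endothelin 1, was at -0.78 ± 0.19 (adjusted p = 0.0652), and Nos3, which encodes endothelial nitric oxide synthase, at 0.38 ± 0.11 (adjusted p = 0.111).

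Among 17 other glycolysis genes, 1 rose and 3 fell. Bpgm, whose product diverts glycolysis to 2,3-bisphosphoglycerate, was at 6.66, 6.66 and 6.55 in the knockout and at 5.86, 5.81 and 5.88 in the control. Both groups were tight and far apart, a rise of 0.77 ± 0.12 or 1.71-fold (adjusted p = 0.0168). The falls were in Bsg, Slc2a4 and Hkdc1. Bsg, which encodes basigin, the partner that carries MCT1 and MCT4 to the cell surface, was at 10.43, 10.30 and 10.20 in the knockout and at 10.84, 10.75 and 10.79 in the control. The groups were well separated, a fall of 1.40-fold (-0.48 ± 0.072, adjusted p = 0.0137).

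Slc2a4, which encodes the insulin-regulated glucose carrier GLUT4 of muscle and fat, was at 5.83, 5.76 and 5.57 in the knockout and at 6.38, 6.51 and 6.65 in the control (-0.80 ± 0.14, adjusted p = 0.0249). Hkdc1, which encodes a hexokinase-like protein, was at 4.64, 4.50 and 4.38 in the knockout and at 5.10, 5.52 and 5.32 in the control (-0.80 ± 0.15, adjusted p = 0.0327). Neither gene overlapped between the groups. Hkdc1 lay not far above background in the knockout, and both Hkdc1 and Slc2a4 were removed by the stricter filter on dim genes. The lists of enterocyte markers (median -1.91) and mural markers (median -0.73) were lower in the knockout along with these 3 genes. Their part in these falls was not tested. Without knockout 1, 2 or 3 or control 2 or 3, the calls of Bpgm (adjusted p from 0.0540 to 0.0595), Slc2a4 (0.0531 to 0.1002) and Hkdc1 (0.0633 to 0.124) were lost. Bsg lost its call when knockout 3 (adjusted p = 0.0569) or control 3 (adjusted p = 0.0575) was left out, and with no variance trend (adjusted p = 0.0863).

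**Figure D5:**
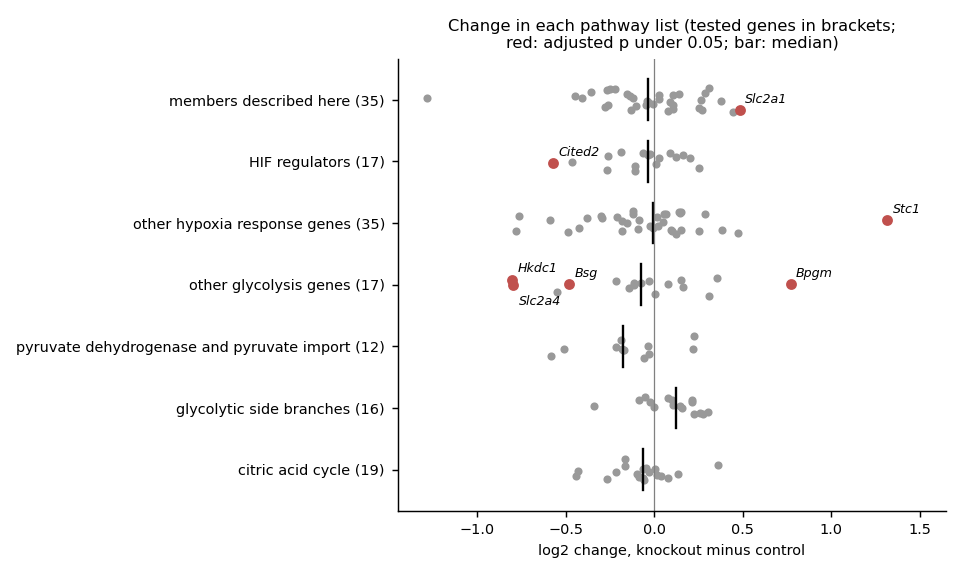
Log2 change, knockout minus control, of every tested gene in the list described here and in 6 lists of other pathway genes, with a bar at each median and genes with an adjusted p under 0.05 in red. Stc1 lies furthest to the right at 1.32, and 6 of the 7 named genes belong to the lists of other genes.

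Regulators of HIF and the enzymes downstream of pyruvate held 1 further call. Cited2, which encodes a protein that competes with HIF for the coactivators CBP and p300, was at 8.42, 8.62 and 8.36 in the knockout and at 9.23, 8.97 and 8.93 in the control. The groups did not overlap, a fall of 1.49-fold (-0.57 ± 0.11, adjusted p = 0.0338). The call held without knockout 2 (adjusted p = 0.0467) and was lost when any of the other 5 arrays was left out (adjusted p from 0.0745 to 0.128), and also with no variance trend (adjusted p = 0.0868). The other 16 tested regulators did not pass, Usp20 being at -0.47 ± 0.13 (adjusted p = 0.113). Of 12 genes of pyruvate import and oxidation, 16 of the glycolytic side branches and 19 listed under the citric acid cycle, 0 passed by limma. In these lists 2, 0 and 2 genes had an unadjusted p under 0.05 by limma, all 4 lower in the knockout. Of all 15312 tested genes, 7.20% were higher and 9.22% lower at that p. The 2 listed under the citric acid cycle were Idh1 and Mdh1, which encode cytosolic forms of its enzymes. The median changes of these lists were -0.18, 0.12 and -0.065. The genes with the smallest p among them were Idh1, a cytosolic isocitrate dehydrogenase (-0.43 ± 0.12, adjusted p = 0.117), Pdk2, another pyruvate dehydrogenase kinase (-0.51 ± 0.16, adjusted p = 0.141), and Pcx, pyruvate carboxylase (-0.58 ± 0.18, adjusted p = 0.147).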

How the data were processed

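Expression in 6 arrays of 1 colour was deposited as log2 probe set values, made by the authors with RMA in the oligo package, per the submitters' processing notes. RMA corrects background, quantile-normalizes and summarises probes. Versions are not given in the sources used here. Of 41345 probe sets, 23521 carried 1 gene symbol in the platform annotation, 1814 several and 16010 none, and symbols were updated by gene identifier through RefSeq (GRCm38.p6), which matched 23328. The brightest probe set stood for each of 22180 genes. A gene was tested if its mean exceeded the level below which 90 percent of 1429 chemosensory receptor genes lay (15312 genes). Arrays have no read depth, and their number limits the precision.

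Testing used lmFit and eBayes (variance trend on, two-sided) of limma 3.58.1 under R 4.3.3, and Benjamini-Hochberg adjustment ran over all tested genes at a threshold of 0.05. The procedure was tested on simulated data. Alternatives changed the filter, normalization, choice of probe set, variance model, array weights, replicate block and arrays included. The members, lists and the rule for named genes were chosen with earlier results of these data known. By that rule, values on every array are given for members with an unadjusted p under 0.05 or groups that do not overlap and for key pathway steps, and other pathway genes are named when called or, up to 2 per list, by smallest p. Marker lists of fibroblasts, lymphatic endothelium, macrophages, B cells, erythroid cells and glia were also read, and 1, 2, 0, 0, 0 and 0 of their genes passed by limma (3, 2, 1, 1, 0 and 0 at an unadjusted p under 0.05). The fibroblast call was a fall (Col1a2, -0.83) and the lymphatic ones were rises (Lyve1 and Flt4). Promoters are those of RefSeq. Figures used Python 3.11.15 and matplotlib 3.10.9.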

Additional observations from a re-analysis of the deposited data

How the results depend on the processing

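Of 645 values of the 35 members and the 6 called pathway genes under other settings, 616 kept their direction. The 29 that did not belong to 11 members, of which Pfkm had the largest change in the report (-0.26). The count of changed genes, 393 in the report, was 52 with control 1 as the only control, 139 with no variance trend and 91 to 379 with 1 array left out. The count of changed members was 2 under the stricter filter and under cyclic loess, 0 with the mean of all probe sets, with no variance trend or with control 1 as the only control, and 0 to 3 with 1 array left out. Changed pathway genes numbered 2 against control 1 alone and 1 to 5 with 1 array left out. The median change of the members was 0.083 under the stricter filter, 0.018 under cyclic loess and -0.065 to 0.012 with 1 array left out. The sign turned for Ldha (0.020) with arrays centred, for Aldoc (0.029), Pfkfb4 (0.018) and Slc2a3 (0.0099) under cyclic loess, for Pgam1 (0.16) and Car9 (-0.071) with the mean of all probe sets, and for Eno2 (-0.0089) with array weights. Against control 1 alone it turned for Aldoc (0.075), Bnip3 (0.021), Eno2 (-0.085) and Ldha (0.0023). With 1 array left out, the ranges were -0.14 to 0.12 for Aldoc, -0.041 to 0.14 for Car9, -0.10 to 0.17 for Eno2, -0.065 to 0.045 for Ldha, -0.33 to 0.083 for P4ha1, -0.15 to 0.32 for Pdk1, -0.14 to 0.0048 for Pfkfb4, -0.42 to 0.028 for Pfkm, -0.22 to 0.011 for Pgam1 and -0.26 to 0.075 for Slc2a3. With the replicate number as a block, 394 genes, 1 member (Slc2a1, adjusted p = 0.0445) and 5 pathway genes changed; calls lost among the pathway genes named in the report were Hkdc1 (adjusted p = 0.0642) and Slc2a4 (adjusted p = 0.0573), while Edn1 passed, as it did under the stricter filter, without control 2 and with control 1 as the only control. Hkdc1 also missed the threshold under cyclic loess (adjusted p = 0.0504). Arrays with the same number did not deviate together (correlations of -0.021, -0.0074 and 0.039 for numbers 1, 2 and 3). The labels do not say whether the numbers pair the samples. Such weak correlations with 3 arrays per group cannot settle it. The cause of these shifts was not tested. The fit against control 1 alone has no spread of its own in that arm, assumes that it varies like the knockout arrays, and made few calls over all genes, so a call lost there says nothing about cell mixture.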
